A study of Homo sapiens with 2 samples.

Results

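Notch and Hedgehog are pathways through which neighbouring cells instruct each other during development, and both are reused in ovarian tumors. The genes examined here are 35 components and targets of these pathways, 23 of Notch and 12 of Hedgehog, chosen by name and found by Ensembl identifier in the deposited table of 57736 genes. RNA-Seq reads were counted in A1847, an established line of human ovarian cancer cells, with 1 library from the parental control, labelled CARM1 wild type, and 1 library from CARM1 KO cells, in which the arginine methyltransferase CARM1 was targeted by CRISPR with a lentiviral guide RNA. Both cultures were grown in RPMI 1640 with fetal bovine serum, and neither label names any other agent or allele. The study describes the CARM1 KO cells as a clone, so an effect of CARM1 loss and a property of that clone cannot be told apart.

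With 1 library per group there is no replicate check, the spread between cultures could not be estimated, and each interval below is an exact 95% Clopper-Pearson interval that covers counting error only. In bulk RNA, fewer cells that express a gene and less RNA per cell cannot be told apart. The libraries held 30741953 reads in the parental and 32300391 in the KO library. Reads were scaled by the TMM method, and a gene was called where its scaled level differed more than 3-fold and the interval did not include equal levels. Only the 18563 genes whose reads summed to 10 or more over the libraries were compared. The targeted gene, CARM1, was counted 975 times in the parental and 380 times in the KO library. This was 2.65-fold lower (95% interval 2.35 to 2.99) and did not reach the threshold. The study presents the knockout by immunoblot of the CARM1 protein, which RNA counts do not measure. Of 9 markers of ovarian epithelium, 7 had enough reads and 6 of these were called higher in CARM1 KO cells, against 12.3% of all genes compared. The other, KRT18, had 21154 and 51223 reads, also higher but under the fold threshold. WT1 had 8 and 1 reads and MUC16 had 0 and 1. The 4 fibroblast markers together had 348 reads in the parental and 680 in the KO library, with COL1A1 called higher and DCN and LUM called lower. The 3 endothelial markers found in the table had 11 and 16 reads together, with CDH5 at 0 in both libraries, and of these KDR alone had enough reads and was not called. Of the leukocyte markers, PTPRC had 6 and 0 reads, CD3E was at 0 in both, and CD68, which macrophages and other cells express, had 400 and 1644 and was called higher. The part of these marker differences in the results below was not tested.

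In the Notch pathway, a DSL ligand on the surface of a cell (DLL or JAG) binds a NOTCH receptor on its neighbour, the receptor is cleaved, and its intracellular domain joins the DNA-binding protein RBPJ and a Mastermind coactivator (MAML) to switch on HES and HEY repressor genes. In the Hedgehog pathway, a secreted ligand (SHH, IHH or DHH) binds PTCH1 with the help of the co-receptors BOC, CDON and GAS1, which releases SMO to activate the GLI transcription factors, while SUFU restrains them. PTCH1, HHIP and GLI1 are themselves switched on by GLI proteins and are widely used as readouts of pathway activity. HES1, HEY1 and HEYL are used in this way for Notch, whose targets also include HES5 and NRARP of the wider list described below.

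The promoters of HES1, HEYL and PTCH1 are shown because their genes were called and because they hold a full match to the motif of the factor at the end of each pathway. The sequences are from RefSeq, each holds the 250 bases before a transcript start, and each was placed in GRCh37 by its only exact match on the chromosome. The HES1 sequence lies at chr3:193853687-193853936 on the plus strand and ends at the base before the annotated gene. The HEYL sequence lies at chr1:40105316-40105565 on the minus strand and also ends at the base before the gene. The PTCH1 sequence lies at chr9:98271549-98271798 on the minus strand, inside the PTCH1 gene, outside any annotated exon and before an internal start. Capitals mark matches on either strand to GTGGGAA, to the shorter TGGGAA that it contains (both RBPJ), or to GACCACCCA (GLI).
HES1: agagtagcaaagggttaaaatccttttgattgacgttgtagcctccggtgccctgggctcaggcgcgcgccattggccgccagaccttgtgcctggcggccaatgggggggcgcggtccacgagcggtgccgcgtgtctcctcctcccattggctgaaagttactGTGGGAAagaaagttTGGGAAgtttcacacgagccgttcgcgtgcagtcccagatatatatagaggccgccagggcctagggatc
HEYL: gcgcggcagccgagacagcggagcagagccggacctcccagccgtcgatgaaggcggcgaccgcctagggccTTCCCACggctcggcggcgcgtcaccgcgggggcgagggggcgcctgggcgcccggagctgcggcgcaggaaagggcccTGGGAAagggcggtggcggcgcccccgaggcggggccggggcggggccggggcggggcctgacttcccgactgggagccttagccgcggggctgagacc
PTCH1: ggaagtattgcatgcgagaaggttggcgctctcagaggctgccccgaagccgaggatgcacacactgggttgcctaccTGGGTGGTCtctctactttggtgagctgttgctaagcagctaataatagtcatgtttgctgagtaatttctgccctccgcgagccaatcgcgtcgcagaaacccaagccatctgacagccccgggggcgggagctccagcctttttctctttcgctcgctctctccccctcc
The HES1 sequence holds GTGGGAA, beginning 85 bases before the start, and a further TGGGAA beginning 70 bases before it, both on the strand of the gene. HEYL holds the reverse complement of GTGGGAA, beginning 178 bases before the start, and TGGGAA 99 bases before it. PTCH1 holds the reverse complement of GACCACCCA, beginning 172 bases before the start. RefSeq windows of 250 bases before to 50 bases after a start were found for 29 of the 35 genes, 40 windows in all. GTGGGAA was found in 5 of these 40 windows, those of HES1, HES4, HEY2, HEYL and RBPJ, against 6.25% of all 35116 windows. The shorter TGGGAA was found in 9 of the 40 windows (22.5%), near the 24% of all windows. GACCACCCA was found in 1 of the 40 windows, against 0.236% of all windows. CACGCG, a site bound by HES proteins, was found in 7 of the 40 windows, from 6 genes, against 11.4% of all windows. Genes with several starts have several windows, some of which overlap. A match describes these letters and is not a measurement of binding.

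Across both pathways, 10 of the 35 genes were called lower in CARM1 KO cells and 3 were called higher, 16 did not pass the thresholds, and 6 had too few reads to be compared. Among all genes compared, 11.3% were called lower and 12.3% were called higher, and among the 14140 protein-coding genes the shares were 9.1% and 12.3%. The shares of the 29 genes compared were 34.5% lower and 10.3% higher. The genes called lower were GLI1, PTCH1, HHIP and BOC of the Hedgehog pathway, and HES1, HEY1, HEYL, JAG1, NOTCH3 and MAML3 of the Notch pathway. The genes called higher were GAS1, GLI3 and SHH. With scaling by library size, DESeq2 size factors or upper quartiles, 10 of the 35 genes were lower and 3 higher, against 11.5%, 11.1% and 11% of all genes lower and 12.1%, 12.4% and 12.5% higher. With at least 50 reads, 10 were lower and 2 higher, against 8.59% and 11.2% of all genes, and with at least 1 read, 11 were lower and 4 higher, against 8.6% and 9.19%. A changed read minimum also changes how many of the 35 genes are compared, so these counts are not out of 29. With a fold above 2, 11 were lower and 4 higher, against 17.4% and 18%. Where the whole interval had to lie beyond 3-fold, 10 were lower and 1 higher, against 6.71% and 6.81%. With edgeR's exact test at an assumed coefficient of variation of 0.1, 10 were lower and 3 higher, against 10.8% and 12.1%, and at 0.4, 8 were lower and 0 higher, against 4.82% and 2.87%. The median log2 ratio of CARM1 KO over parental was -0.54 over the 29 genes and -0.03 over all genes compared. Summed over the Hedgehog genes, 5614 reads were counted in parental and 865 in CARM1 KO cells. BOC with 1674 reads, HHIP with 1653 and PTCH1 with 1007 made up the larger part of that parental sum. The sum over the Notch genes was 13685 and 15282, of which NOTCH2 and RBPJ made up the larger part in both libraries.

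**Figure D1:**
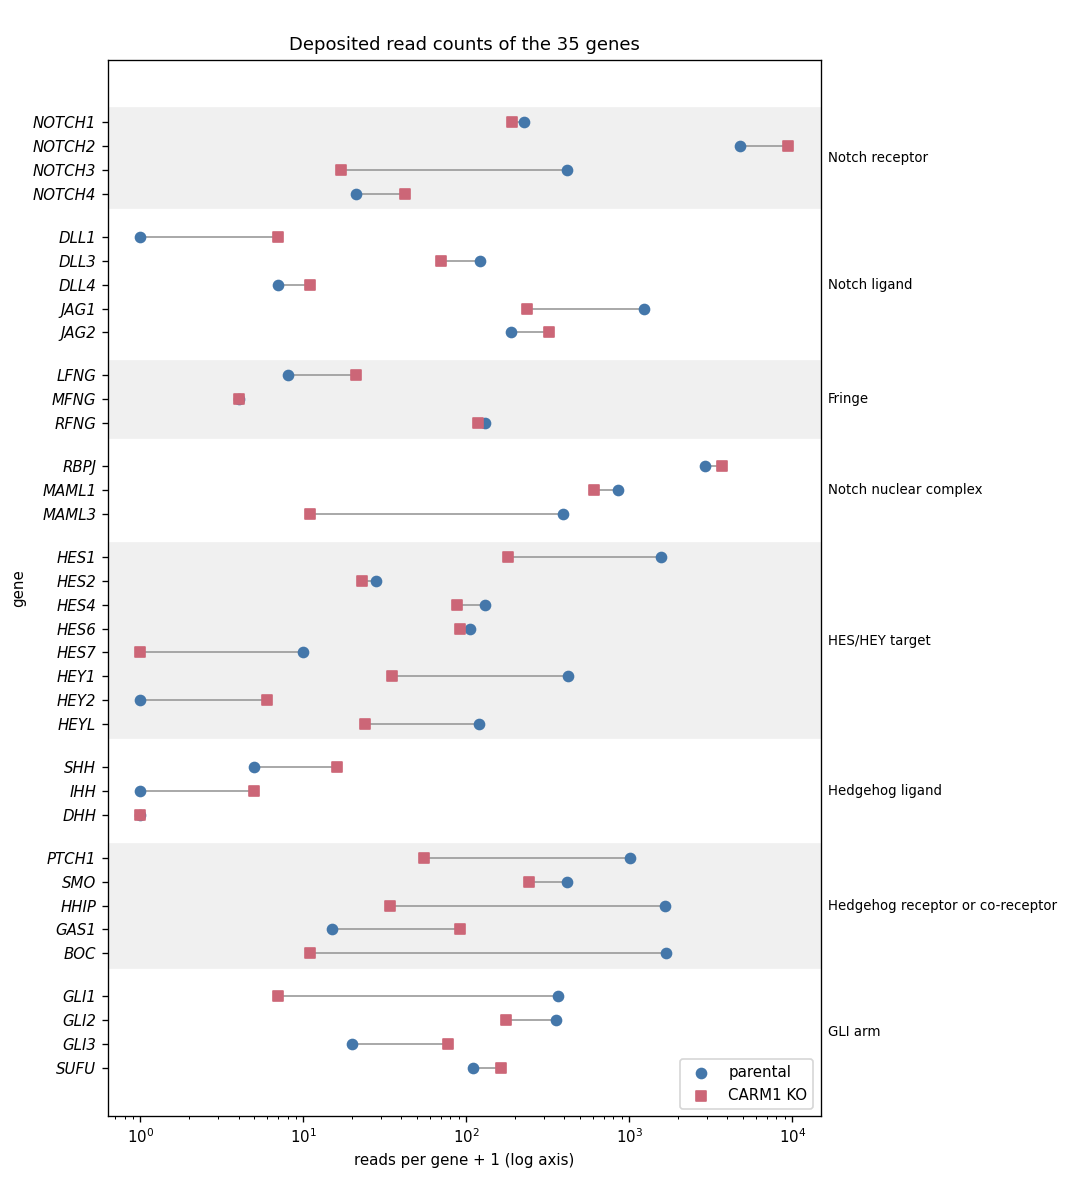
Deposited reads of each of the 35 genes plus 1, on a log axis, in the parental library (circles) and the CARM1 KO library (squares), grouped by role. BOC, HHIP, PTCH1 and GLI1 lie far to the left in the CARM1 KO library, with 10, 33, 54 and 6 reads. So do the Notch genes NOTCH3, MAML3 and HEY1, with 16, 10 and 34 reads, whereas NOTCH2 and RBPJ stay at the right in both.

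**Figure D2:**
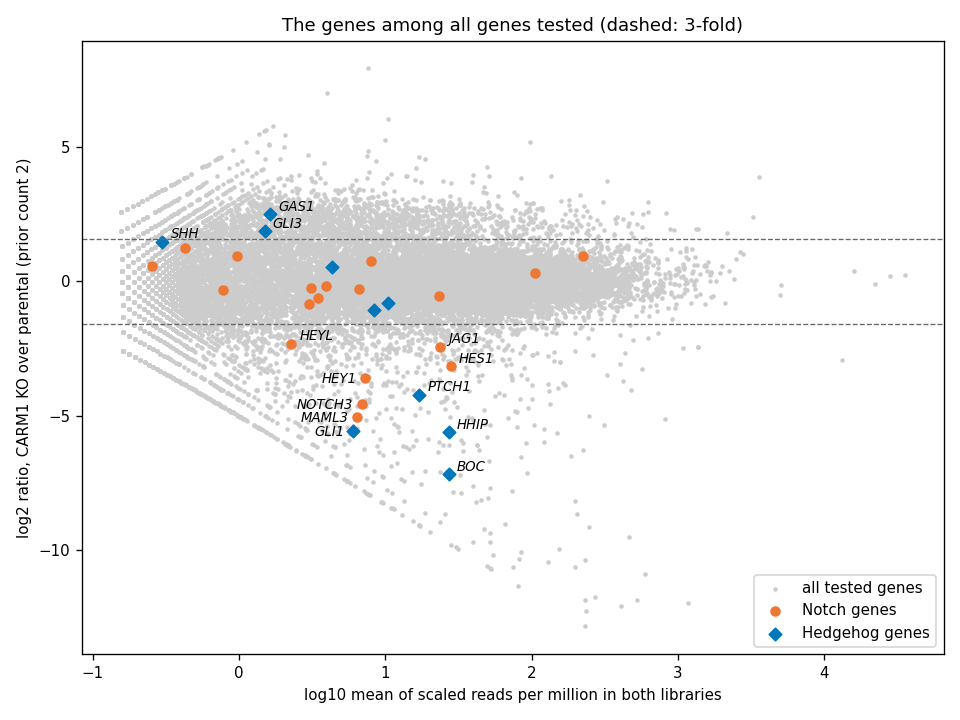
Log2 ratio of CARM1 KO over parental (prior count of 2) against the log10 mean of scaled CPM, for all 18563 genes compared (grey), the Notch genes (circles) and the Hedgehog genes (diamonds), with called genes named and dashed lines at 3-fold. BOC lies lowest of the named genes at -7.17 and GAS1 highest at 2.48.

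In GRCh37, the genes called lower were annotated as GLI1 (ENSG00000111087) at chr12:57853568-57866051, PTCH1 (ENSG00000185920) at chr9:98205262-98279339, HHIP (ENSG00000164161) at chr4:145567308-145666423 and BOC (ENSG00000144857) at chr3:112929850-113006306 in the Hedgehog pathway. Those of the Notch pathway were HES1 (ENSG00000114315) at chr3:193853937-193856521, HEY1 (ENSG00000164683) at chr8:80674606-80680092, HEYL (ENSG00000163909) at chr1:40089107-40105315, JAG1 (ENSG00000101384) at chr20:10618332-10654647, NOTCH3 (ENSG00000074181) at chr19:15269849-15311806 and MAML3 (ENSG00000196782) at chr4:140637907-141075338. The genes called higher were GAS1 (ENSG00000180447) at chr9:89559277-89562421, GLI3 (ENSG00000106571) at chr7:42000547-42303699 and SHH (ENSG00000164690) at chr7:155592674-155605157.

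GLI1, PTCH1 and HHIP, which GLI proteins switch on, were called lower in CARM1 KO cells. GLI1, the GLI family member that acts as an activator and is itself induced by the pathway, had 367 reads in the parental and 6 in the KO library, a 63.2-fold lower level (95% interval 28.7 to 173). PTCH1, the Hedgehog receptor that holds SMO inactive until ligand binds, had 1007 reads in the parental and 54 in the KO library, which was 19.3-fold lower (95% interval 14.6 to 25.8). It shares 711 exonic bases with a long noncoding RNA on the opposite strand, which had 19 and 12 reads. The sequence above with the GLI motif is from this gene. HHIP, a membrane protein that binds and sequesters Hedgehog ligands, fell from 1653 reads to 33 reads, or 51.7-fold (95% interval 36.7 to 75.4). All 3 genes kept this call under each alternative tried. HHIP shares 813 exonic bases with the antisense RNA HHIP-AS1, which had 156 reads in the parental and 67 in the KO library. Whether strand was used in the counting is not given in the sources used here, so reads from overlapping genes on opposite strands may not be separated.

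Of the other GLI factors, GLI3 was called higher and GLI2 was not called. GLI2, the main activator that relays the signal from SMO, had 353 reads in the parental and 174 in the KO library, a ratio of 2.10-fold (95% interval 1.74 to 2.53) that did not reach the fold threshold. GLI3, known mainly for the repressor form made in the absence of ligand, had 19 reads in the parental and 76 in the KO library and was 3.87-fold higher (95% interval 2.32 to 6.78). This interval extends below 3-fold, and GLI3 was not called where its whole interval had to lie beyond 3-fold. Per length, as scaled CPM per kb of annotated exon, GLI1 was at 2.60 in parental cells, above GLI2 at 1.47 and GLI3 at 0.0444. In CARM1 KO cells GLI2 was at 0.704, GLI3 at 0.172 and GLI1 at 0.0411. GLI1 thus made up 63.1% of the summed level of the GLI family in parental and 4.48% in CARM1 KO cells, and GLI3 1.08% and 18.8%. SUFU, which holds GLI proteins in the cytoplasm, had 109 and 163 reads, a ratio of 1.45-fold (95% interval 1.13 to 1.86) that was not called.

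The Hedgehog co-receptors BOC and GAS1 moved in opposite directions. The co-receptor CDON, of the wider list described below, had 289 and 204 reads and was not called. BOC, an immunoglobulin superfamily protein that presents ligand to PTCH1, had 1674 reads in the parental and 10 in the KO library, a 173-fold lower level (95% interval 93.8 to 361) and the largest difference among the 35 genes. GAS1, a membrane-anchored co-receptor with the same role, had 14 reads in the parental and 90 in the KO library and was 6.23-fold higher (95% interval 3.52 to 11.8), a call lost at an assumed coefficient of variation of 0.4. In the family of BOC, GAS1 and CDON, BOC made up 89.5% of the per-length level in parental and 2.43% in CARM1 KO cells, and GAS1 2.46% and 71.9%. The summed level of the family was 5.84 scaled CPM per kb in parental and 1.24 in CARM1 KO cells. With the longest annotated transcript as the length, it was 10.6 and 1.65, and the share of CDON in CARM1 KO cells was 42.4% in place of 25.7%. BOC shares 530 exonic bases with CFAP44 on the opposite strand, which had 294 reads in the parental and 667 in the KO library. SMO, the signal transducer itself, had 414 and 240 reads and did not pass the fold threshold, with a ratio of 1.78-fold (95% interval 1.52 to 2.10) towards a lower level in CARM1 KO cells.

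Hedgehog ligands were close to the detection limit in both libraries. SHH had 4 reads in the parental and 15 in the KO library, a 3.63-fold higher level whose interval extended from 1.16 to 15.03. SHH was not called where the whole interval had to lie beyond 3-fold, and its level in CARM1 KO cells was 0.468 CPM, counts scaled to the size of the library. IHH had 0 and 4 reads, and DHH had 0 reads in both libraries, where a count of 0 allows up to 3 reads. No fold is given for IHH or DHH.

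**Figure D3:**
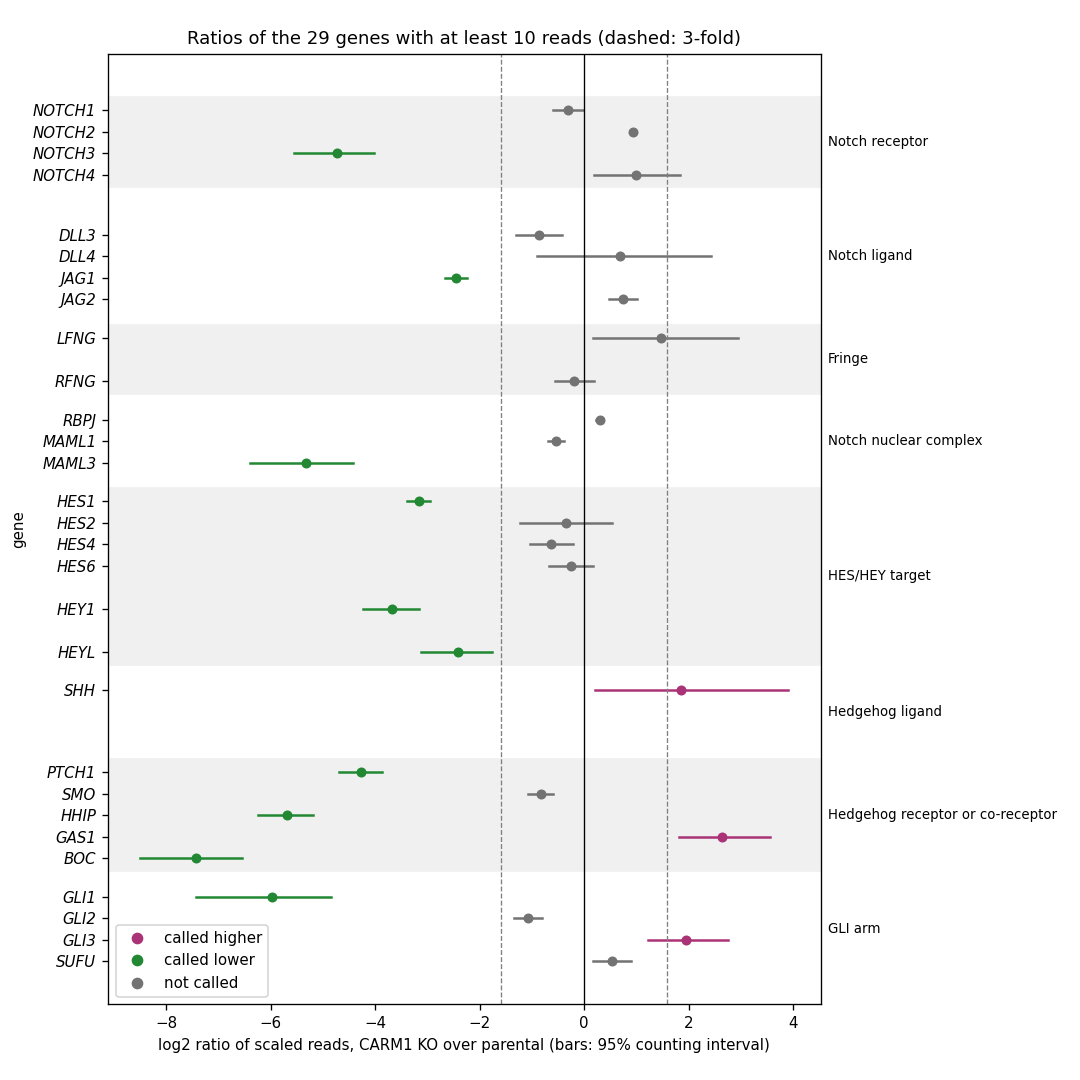
Log2 ratio of scaled reads, CARM1 KO over parental, of the 29 genes with at least 10 reads, with 95% counting intervals as bars and dashed lines at 3-fold. The intervals of the 10 genes called lower all lie beyond 3-fold, whereas those of SHH and GLI3 cross it.

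In the Notch pathway, 3 of the 8 HES and HEY genes were called lower, 3 were not called and 2 had too few reads. HES1, the repressor most generally induced by Notch, had 1565 reads in the parental and 180 in the KO library, an 8.98-fold lower level (95% interval 7.69 to 10.5). Its RBPJ matches are shown above. HEY1, a related repressor, had 421 reads in the parental and 34 in the KO library, which was 12.8-fold lower (95% interval 9.01 to 18.7). HEYL had 119 and 23 reads and was 5.34-fold lower (95% interval 3.40 to 8.75), a call lost at an assumed coefficient of variation of 0.4. HES4 and HES6 did not pass the fold threshold, with 130 and 87 reads for HES4 and 105 and 91 reads for HES6, a gene whose product is known to oppose HES1. The ratio towards a lower level in CARM1 KO cells was 1.54-fold for HES4 (95% interval 1.17 to 2.05) and 1.19-fold for HES6 (95% interval 0.891 to 1.60). HES2 had 27 and 22 reads and was not called. HES7, the oscillator of somite formation, had 9 reads in the parental and 0 in the KO library, and HEY2 had 0 and 5, both under the minimum of 10 reads. The HES4 window carries GTGGGAA as those of HES1 and HEYL do. Of the Notch targets on the wider list, HES5 had 4 and 20 reads and was called higher. NRARP had 290 and 145 reads and was not called.

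Per length, HES1 was the highest of the 35 genes in parental cells, at 24.5 scaled CPM per kb, and was at 2.73 in CARM1 KO cells. It made up 72.7% of the summed level of the 8 HES and HEY genes in parental and 38.1% in CARM1 KO cells, where HES4 followed with 33.9%. The summed level of these 8 genes was 33.7 scaled CPM per kb in parental and 7.17 in CARM1 KO cells.

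Of the NOTCH receptors, NOTCH3 was called lower and the others were not called. NOTCH3, a receptor known to be amplified in some ovarian serous carcinomas, had 413 reads in the parental and 16 in the KO library, a 26.7-fold lower level (95% interval 16.2 to 47.1). NOTCH2 had 4791 and 9480 reads, a ratio of 1.92-fold (95% interval 1.85 to 1.98) towards a higher level that did not reach the fold threshold. NOTCH1 had 226 and 189 reads and NOTCH4, a receptor best known from endothelium, 20 and 41 reads, and neither was called. NOTCH4 shares 98 exonic bases with GPSM3 on the same strand, which had 22 and 80 reads. NOTCH2 has near-identical partial copies, the NOTCH2NL genes, and RSEM divides reads between such copies. The 4 NOTCH2NL genes in the annotation had 0 identifiers in common with the count table, so this division was not measured and the NOTCH2 counts are uncertain. As counted, NOTCH2 made up 81.7% of the per-length level of the receptors in parental and 96.4% in CARM1 KO cells, and NOTCH3 12.5% and 0.29%.

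Among the DSL ligands, JAG1 was lower and the others were not called. JAG1 had 1236 reads in the parental and 234 in the KO library, a 5.45-fold lower level (95% interval 4.74 to 6.30), also lost at an assumed coefficient of variation of 0.4. JAG2, its closest relative, had 186 and 322 reads, a ratio of 1.68-fold (95% interval 1.40 to 2.02) towards a higher level. DLL3, a ligand that is known to inhibit Notch in the cell that makes it, had 121 and 69 reads, a ratio of 1.81-fold (95% interval 1.34 to 2.47) towards a lower level. DLL4, the ligand of sprouting vessels, had 6 and 10 reads, and DLL1 had 0 and 6 reads, so that at this depth a difference was not detectable for DLL4 and no comparison was made for DLL1. JAG1 made up 63.5% of the per-length level of the 5 ligands in parental and 23.8% in CARM1 KO cells. JAG2 made up 13.9% and 47.7%, and the summed level of the ligands was 6.76 scaled CPM per kb in parental and 3.30 in CARM1 KO cells.

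The Fringe genes, which add a sugar to NOTCH receptors and thereby alter their choice between DLL and JAG ligands, were not called. RFNG had 129 and 117 reads, with an interval of the ratio towards a lower level of 0.880 to 1.48. RFNG shares 835 exonic bases with GPS1 on the opposite strand, which had 2236 reads in the parental and 1900 in the KO library. LFNG had 7 and 20 reads, a ratio of 2.77-fold towards a higher level with an interval from 1.12 to 7.74, and MFNG had 3 reads in each library.

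In the nuclear complex, MAML3 was called lower and RBPJ and MAML1 were not called. RBPJ, which every canonical Notch signal requires, had 2928 reads in the parental and 3716 in the KO library, a ratio of 1.23-fold (95% interval 1.17 to 1.29). MAML1 had 854 and 607 reads, a ratio of 1.45-fold (95% interval 1.31 to 1.61) towards a lower level, and was not called. MAML3 had 389 reads in the parental and 10 in the KO library, a 40.2-fold lower level (95% interval 21.6 to 84.4). MAML3 shares 252 exonic bases with MGST2 on the opposite strand, which had 44 and 159 reads. MAML2, which was on the wider list described below, had 493 reads in the parental and 2139 in the KO library and was 4.20-fold higher (95% interval 3.81 to 4.64). Of the summed per-length level of the Mastermind genes, MAML3 made up 21.1% in parental and 0.362% in CARM1 KO cells, and MAML2 25.7% and 74.4%.

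**Figure D4:**
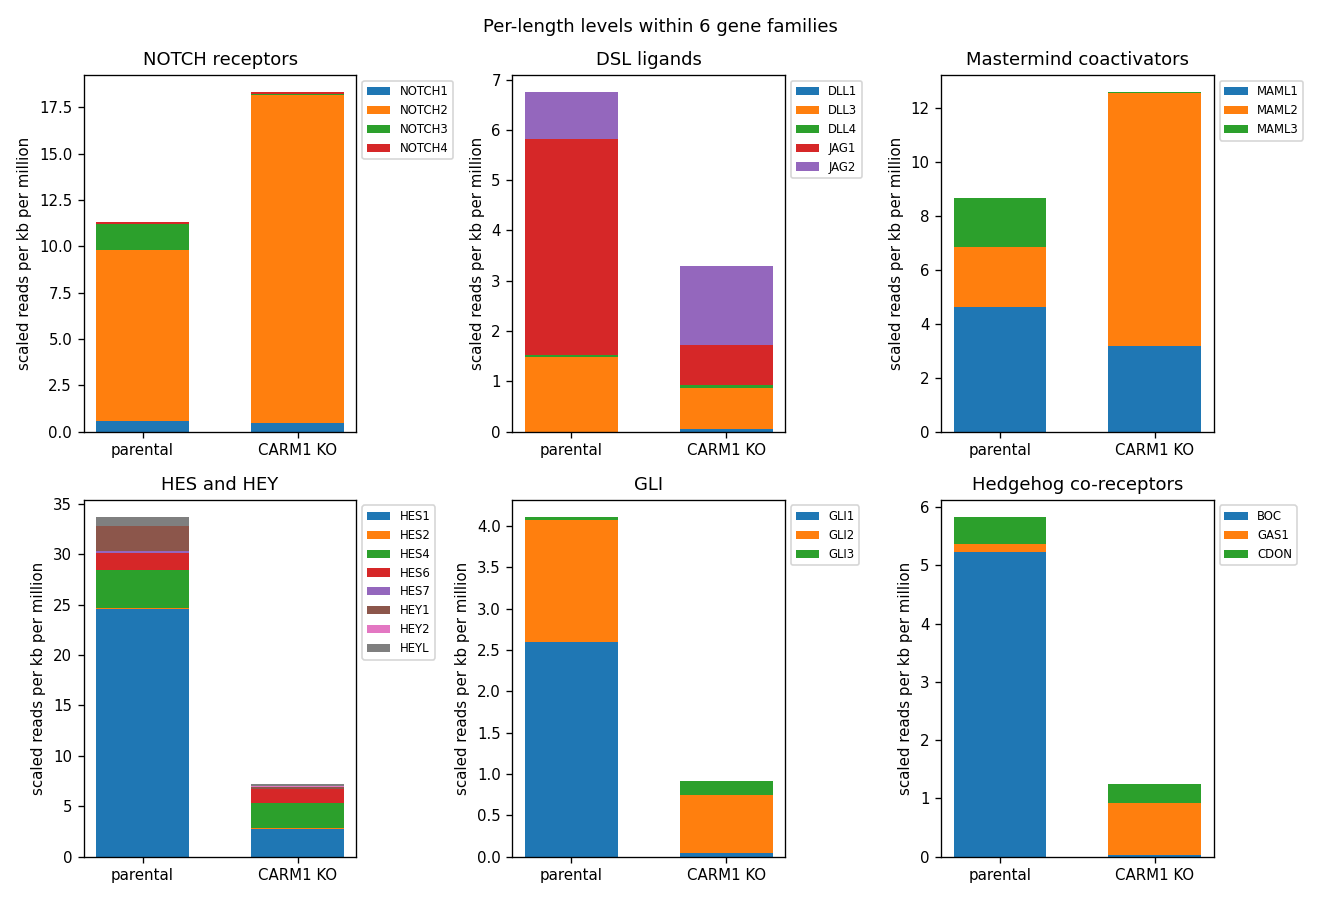
Scaled CPM per kb of annotated exon in each library, stacked by gene within 6 families. The stacks of HES and HEY genes, GLI genes, Hedgehog co-receptors and DSL ligands are lower in the CARM1 KO library, those of NOTCH receptors and Mastermind coactivators are higher, and the leading gene changes from JAG1 to JAG2, from MAML1 to MAML2, from GLI1 to GLI2 and from BOC to GAS1.

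Ordered by per-length level, the highest genes in parental cells after HES1 were NOTCH2 at 9.23, RBPJ at 6.17, BOC at 5.23 and MAML1 at 4.62 scaled CPM per kb. In CARM1 KO cells the order was NOTCH2 at 17.7, RBPJ at 7.58, MAML1 at 3.18, HES1 at 2.73 and HES4 at 2.43. The order depends on gene length. With the longest annotated transcript in place of all exons, RBPJ at 16.4 stood above NOTCH2 at 13.5 in parental cells, while HES1 remained highest at 32.04.

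The called genes were set beside their neighbours on the chromosome. For each called gene the 5 nearest protein-coding genes with at least 50 reads were taken on each side. The median log2 ratio of these flanking genes ranged from -0.36 at NOTCH3 on chromosome 19 to 0.72 at HEY1 on chromosome 8 for the genes called lower. All 10 genes called lower lay below every one of their own flanking genes. These 10 were chosen for a fall of more than 3-fold and the flanking genes were not, so that choice favours this position. The same count was not made for other genes called lower. The nearest approach was at GLI1 on chromosome 12, with -5.57 against -5.11 for the lowest of its flanking genes. Of the 3 genes called higher, GLI3 on chromosome 7 lay above all its flanking genes, whereas GAS1 on chromosome 9 and SHH on chromosome 7 did not. The flanking genes of GAS1 had a median of 0.73 and reached 2.96. HHIP and MAML3 lie on the same chromosome, 4, and their flanking genes had medians of 0.16 and 0.29. Copy number was not measured.

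**Figure D5:**
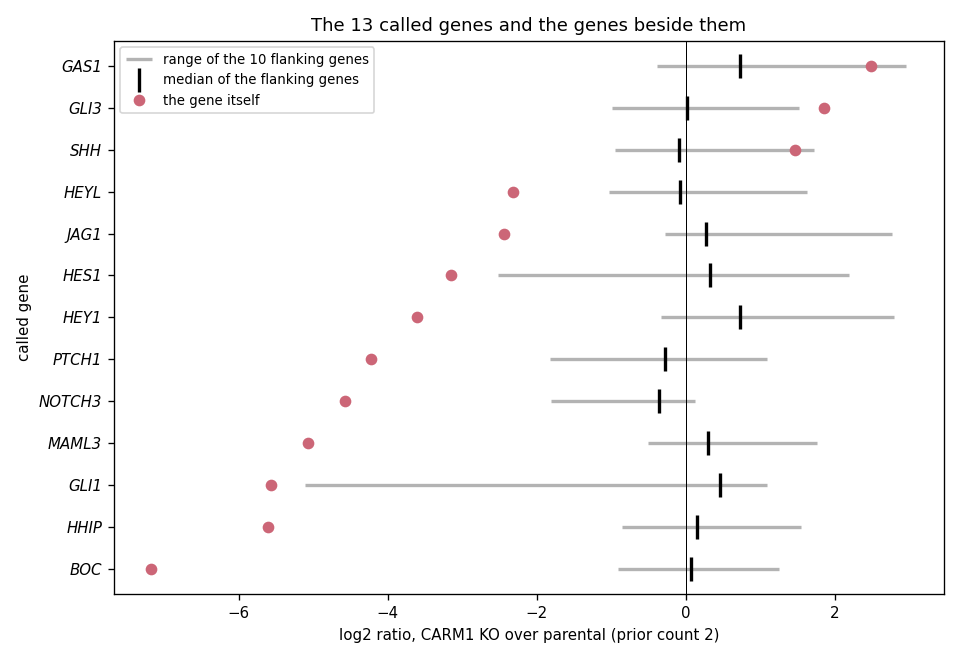
Log2 ratio of CARM1 KO over parental (prior count of 2) of each of the 13 called genes (points), with the median (ticks) and range (bars) of the 10 nearest protein-coding genes with at least 50 reads. The points of the genes called lower lie left of their bars, and the medians of the flanking genes stay between -0.36 and 0.73.

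The other genes of each pathway were taken from wider lists that exclude the 35 genes. In the Notch list, 44 of 47 genes had enough reads, and 5 were called higher and 1 was called lower, shares of 11.4% and 2.27% against the 12.3% and 11.3% of all genes compared. The median log2 ratio of this list was 0.01. All 8 genes of receptor cleavage, which encode the ADAM proteases and the subunits of gamma-secretase, were compared and none was called. Of these 8, 2 gamma-secretase genes were more than 2-fold lower in CARM1 KO cells without reaching the threshold. None of the 3 genes of sugar transfer to the receptor was called. NEURL1 and NEURL1B, ubiquitin ligases of the Neuralized family that act on DSL ligands, were 6.20-fold (20 and 128 reads, 95% interval 3.85 to 10.5) and 3.94-fold (124 and 504 reads, 95% interval 3.23 to 4.83) higher in CARM1 KO cells. DNER, described as a non-canonical ligand, had 29 and 454 reads and was 15.2-fold higher (95% interval 10.4 to 22.9). The other genes called were MAML2 and HES5, which were higher, and the corepressor TLE4, which had 4833 and 447 reads and was 11.2-fold lower (95% interval 10.1 to 12.3).

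In the wider Hedgehog list, 37 of 39 genes had enough reads, and 5 were called higher and 7 were called lower, shares of 13.5% and 18.9% against the 12.3% and 11.3% of all genes compared, so that the share called higher was near that of all genes. The median log2 ratio of this list was 0.16. All 9 genes of GLI and SMO phosphorylation and turnover were compared and none was called. Of the 11 genes of the primary cilium and signal relay, 2 were called higher and 1, the intraflagellar transport gene IFT88, was called lower. GPR161, a receptor that restrains the pathway, had 51 and 323 reads and was 6.13-fold higher (95% interval 4.55 to 8.41), and EVC2, a ciliary partner of SMO, had 87 and 537 reads and was 5.98-fold higher (95% interval 4.76 to 7.59). HHAT, which acylates Hedgehog ligands, had 36 and 205 reads and was 5.51-fold higher (95% interval 3.86 to 8.09). DISP2, a relative of the protein that releases the ligand, had 3 and 22 reads, a 7.10-fold higher level with an interval from 2.13 to 37.1. GPC3, a glypican that binds Hedgehog ligands, had 7659 and 468 reads and was 16.9-fold lower (95% interval 15.4 to 18.6). ZIC1, a zinc finger factor related to the GLI proteins, had 244 reads in the parental and 3 in the KO library and was 84.0-fold lower, with an interval from 28.4 to 410. Of the 7 genes listed as GLI targets in some tissues, 6 had enough reads. Of these, 3 were called lower, 1 was called higher and 2 were not called. CCND2, a cyclin, had 73228 and 17 reads and was 4448-fold lower (95% interval 2778 to 7637). SFRP1, a secreted Wnt inhibitor, had 163 and 1 reads and was 168-fold lower (95% interval 29.8 to 6689). Of the same targets, MYCN was also called lower and FOXL1 was called higher.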

How the data were processed

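RNA-Seq of 1 parental and 1 CARM1 KO library was used. The counts deposited by the authors are raw and whole, 1 per Ensembl gene and library, and came from RSEM after alignment with bowtie2 to hg19. The RSEM version differs between the sources. The Ensembl release and the strand setting are not given in the sources used here. Genes were named by identifier from the GENCODE annotation on GRCh37, which held 55501 of 57736 identifiers. PECAM1 did not match and was not analysed here.

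Counts were scaled by TMM in edgeR 4.0.16 under R 4.3.3. Ratios have exact 95% binomial intervals from scipy 1.17.1, and genes were called at a fold above 3 and an interval not including 1, where the libraries summed to 10 reads or more. A quasi-likelihood fit in edgeR needs replicates and was not possible here. Log2 ratios used a prior count of 2. Levels per kb used the union of annotated exons. The rule was tested on simulated counts with counting error only and with changes well beyond the fold threshold. That test does not cover spread between cultures or changes near the threshold. Motifs were matched exactly on both strands of RefSeq windows (GRCh38.p14).

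The genes, lists, rule and alternatives were chosen with earlier results of these data known. The named genes are the 35 genes, CARM1, the cell type markers by counts and, of each wider list, the called genes, with values for the 4 largest rises and the 4 largest falls by log2 ratio. Alternatives were scaling by upper quartiles, by DESeq2 (version 1.42.0) or by library size, other read minimums, folds and intervals, and edgeR's exact test with assumed coefficients of variation of 0.1 and 0.4. Protein sequences were not used here, and 1 called gene is not reported here.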

Additional observations from a re-analysis of the deposited data

How the results depend on the processing

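Scaling by library size, by DESeq2 size factors or by upper quartiles left 10 lower and 3 higher calls among the 35 genes, as each scaling multiplies all ratios by 1 common factor near 1. With an assumed coefficient of variation of 0.4 in edgeR's exact test, JAG1, HEYL, GAS1, GLI3 and SHH were no longer called, 0 of the 35 genes were higher, 1 gene of the wider Notch list and 0 of the wider Hedgehog list were higher, and over all genes 532 were higher and 894 lower, which follows from the wider spread assumed. Where the whole interval had to lie beyond 3-fold, 1 of the 35 genes (GAS1) and 3 of the wider Hedgehog list were higher, and over all genes 1264 were higher and 1245 lower. With at least 50 reads, 1248 genes were lower, and with a fold above 2, 3225 genes and 6 of the wider Notch list were lower. The median log2 ratio of those of the 35 genes that had enough reads was -0.54, became -0.30 with at least 1 read and -0.84 with at least 50 reads, and differed by less than 0.1 under the other alternatives. Levels per kb depend on the length used. The shorter motifs TGGGAA and CCACCCA were found in 24.0% and 9.19% of all windows. In the windows of the 35 genes the shares were near these, at 22.5% and 10%. Protein features were not run. No paired analysis was possible because each condition has 1 library, and for the same reason no library could be left out.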

Other observations

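The TLE corepressors, which HES proteins recruit to DNA, exchanged their leading member between the libraries. TLE4 made up 85.1% of the per-length level of TLE1, TLE2, TLE3 and TLE4 in parental and 16.8% in CARM1 KO cells, and TLE1 made up 10.8% and 70.9%. TLE1 had 388 reads in the parental and 1199 in the KO library, a ratio of 2.99-fold (95% interval 2.67 to 3.36) that fell just under the fold threshold. The non-call depends on the scaling, since the ratio was 3.03 with DESeq2 size factors and 3.07 with upper-quartile scaling, where TLE1 was called higher, and 2.94 with library size only. The summed level of the TLE genes was 22.1 scaled CPM per kb of annotated exon in parental and 10.0 in CARM1 KO cells, or 36.3 and 13.8 with the longest annotated transcript as the length. TLE1 was chosen after its values were seen.

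Of the Notch target NRARP, a feedback inhibitor of the receptor complex, 290 reads were counted in parental and 145 in CARM1 KO cells, a ratio of 2.07-fold (95% interval 1.69 to 2.54) towards a lower level that was not called. HES5, another target, had 4 and 20 reads and was called higher, with an interval from 1.62 to 19.5. Both were chosen after their values were seen.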
